A study of Mus musculus with 12 samples.

Results

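The cytosolic ribosome of mammals is built from ribosomal RNA and a set of ribosomal proteins, and the genes for those proteins are the subject here. They were taken by symbol as protein-coding genes named Rpl (large subunit) or Rps (small subunit) with a number and an optional a, l or x, together with Rpsa, Rplp0, Rplp1, Rplp2 and Fau. Pseudogenes, the Rps6k kinases and Rps27a were left out. The rule found 80 of the 55487 gene identifiers in each count file: 43 large-subunit genes, 30 small-subunit genes (Rpsa and Fau among them), 3 genes of the P-stalk and 4 paralogs whose symbols end in l (Rpl3l, Rpl10l, Rpl39l and Rps27l). The members lie on 20 chromosomes, 14 of them on chromosome 7 and 5 on chromosome 5, where Auts2 also lies.

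The libraries came from a mouse study of Auts2, a neurodevelopmental gene whose exon 7 is removed by Cre from a floxed allele. At postnatal day 0 (P0), whole forebrain of Cmv-cre, Auts2-ex7-/- males was set against forebrain of wild-type male littermates on the BL6 background. At postnatal day 14 (P14), hippocampus of Nes-cre, Auts2-ex7-/- males was set against hippocampus of male littermates labelled auts2-ex7-fl-het. Each of the 4 groups had 3 libraries, and each library was made from the tissue of an individual animal. Cmv-cre recombines in nearly all cells, whereas Nes-cre acts in neural progenitors and their descendants. The labels do not say whether the fl-het controls carried Cre, and they are not wild type. Tissue, age, Cre line and type of control all change together between P0 and P14.

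As background, each ribosome holds a single copy of nearly every ribosomal protein, and the genes are expressed together at high levels in dividing and growing cells. Their mRNAs begin with a 5′ terminal oligopyrimidine (TOP) tract, a C followed by further C or T bases, through which mTOR and LARP1 control their translation. Most ribosomal protein genes also have many processed pseudogenes, intronless copies of the mRNA scattered over the genome. In people, loss of 1 copy of several of these genes (RPS19, RPL5, RPL11 and others) causes Diamond-Blackfan anaemia.

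To show the TOP tract, the annotated start sites were read from RefSeq promoter sequences of build GRCm38.p6, which held an entry for 61 of the 80 members. A run of at least 7 pyrimidines that begins with C on the listed start base was found in 11 of these 61 and in 1.29% of the 27025 symbols in the table. The windows of 5 such members follow, 30 bases each, with the run from the start base in capitals.
Fau (chr19:6057935-6057964, + strand): gcgcccccacttCTTCCTCTTTCTTgactc
Rpl15 (chr14:18270969-18270998, - strand): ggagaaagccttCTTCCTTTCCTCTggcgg
Rps18 (chr17:33955648-33955677, - strand): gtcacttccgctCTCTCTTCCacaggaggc
Rps6 (chr4:86857350-86857379, - strand): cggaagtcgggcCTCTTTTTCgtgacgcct
Rpl35a (chr16:33056470-33056499, + strand): gggcttgccttcCTCTTTCCgccatcttgg
Fau encodes a fusion of a ubiquitin-like protein with ribosomal protein S30, Rps6 the subunit phosphorylated by S6 kinase, and Rpl35a a Diamond-Blackfan gene. The longest runs, of 13 bases, were those of Fau and Rpl15. In the whole promoter window of 250 bases before and 50 after the start, the letters CCGGAAG were present on either strand in 25 of the 61 members (41.0%) and in 9.93% of all symbols. The letters TATAAA were present on either strand in 6 members (9.84%) and in 15.7% of all symbols.

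Library totals ran from 11247150 to 16796797 gene counts at P0 and from 16830720 to 23340621 at P14. Levels are given as CPM, gene counts scaled to a fixed library total, computed once over all 12 libraries with TMM factors. Whole-gene counts on Auts2 include the exons that the deletion leaves, so they do not check the genotype labels: the knockout against control difference was 0.16 ± 0.0828 (SE) at P0 and -0.30 ± 0.0916 at P14 on the log2 scale, with edgeR adjusted p of 0.362 and 0.111. Summed dentate granule cell markers, which mark hippocampus, stood at 249 to 292 CPM in P14 knockouts, 418 to 463 CPM in P14 controls and 96.0 to 129.8 CPM in the P0 libraries. Of 2 libraries that stood apart, 1 did so for the members as well. In the P14 fl-het replicate 3, genes with under 1500 bases of exon other than the members took 5.13% of counts against 5.56% to 5.78% in the other 5 P14 libraries, and genes encoded by mitochondrial DNA took 4.58% against 5.09% to 5.24%. The median and called members at P14, and the called members for the difference between contexts, are therefore also given without it. In P0 wild-type replicate 3 the same short genes took 4.46% against 4.91% to 5.12% in the other 5 P0 libraries, while its share of counts on the members was close to the other wild types.

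The members took 2.77%, 2.704% and 2.84% of gene counts in the 3 P0 knockout forebrains and 2.47%, 2.47% and 2.46% in the 3 wild-type forebrains. All 3 knockouts lay above all 3 wild types. In P14 hippocampus the shares were 1.11%, 1.08% and 1.19% in knockouts and 1.25%, 1.24% and 1.02% in fl-het controls, with replicate 3 of the controls below every knockout. Every newborn forebrain lay above every P14 hippocampus.

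**Figure D1:**
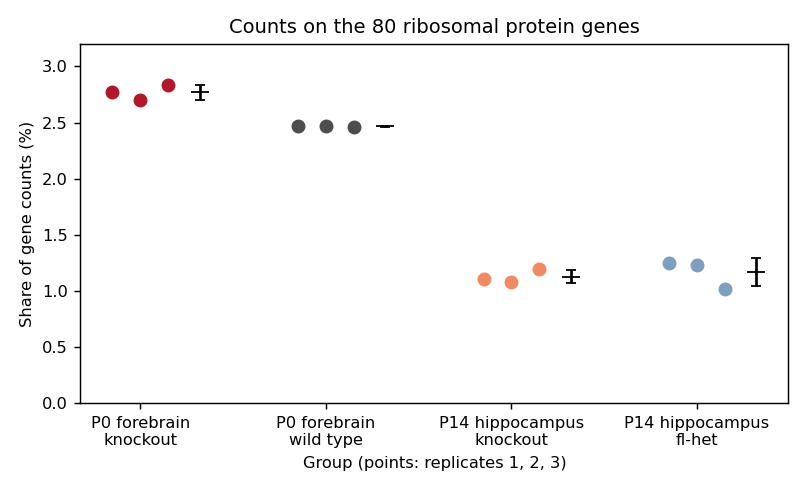
Share of each library's gene counts on the 80 ribosomal protein genes, in percent, by group; points are libraries and the bar beside each group is the mean ± SD of its 3 libraries. The P0 knockouts (2.704% to 2.84%) lie above the wild types (2.46% to 2.47%), and both P14 groups lie between 1.02% and 1.25%.

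Levels between genes were compared per kb of exon of the principal transcript. In P0 wild-type forebrain the highest were Rplp1 (1035 CPM per kb) and Rplp0 (659), both proteins of the P-stalk that recruits elongation factors, with Rps12 (849), Rpl41 (645) and Rpl31 (635). In P14 fl-het hippocampus Rplp1 was again highest, at 707 CPM per kb, followed by Rps2 at 511 and Rpl41 at 411. With the length of all annotated exons in place of the principal transcript, Rplp1 kept the first place in both groups, whereas Rps12 moved from the second place to rank 23 in P0 wild types.

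The lowest levels belonged to the paralogs and to 2 standard members with few counts. Rpl10l, an intronless testis-expressed copy of Rpl10, had 0 counts in all 12 libraries. Rpl39l had 0 to 4 counts and Rpl3l, which replaces Rpl3 in striated muscle, 0 to 15 counts. Their partners were abundant: Rpl10 stood at 488 ± 26.3 CPM (SD, n = 3), Rpl39 at 169.9 ± 17.5 and Rpl3 at 476 ± 65.5 CPM in P0 wild types. Rps27l, a p53-responsive copy of Rps27, was the exception among the paralogs, with 18.4 ± 1.42 CPM against 187 ± 23.4 CPM for Rps27. Among standard members, Rpl24 had 6 to 17 counts and Rps10 16 to 46, and Rpl13a had 113 to 171. Exons of other annotated genes overlapped 47.0% of Rpl24, 28.7% of Rps10 and 35.4% of Rpl13a exon bases. Reads that fit more than 1 gene can be lost where models overlap or where copies are near identical, so the levels of these 3 genes are uncertain. How the submitters counted such reads is not given in the sources used here.

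Copies mattered for individual members. A copy was counted at 80% identity or more over at least 50% of the principal transcript's length, and for its best-matching member only. By this rule 64 of the 80 members had at least 1 pseudogene in the GENCODE annotation, 1306 in all. The median was 10 over all members, with up to 144 for Rpl7a. Over the 76 members with 20 or more counts in some library, the highest of 3 replicates was 1.08 times the lowest at the median in P0 knockouts, 1.11 times in P0 wild types, 1.13 times in P14 knockouts and 1.27 times in P14 fl-het controls. Only 6 members exceeded 1.5 times in any group: Rpl26, Rpl29, Rps2, Rps18, Rps26 and Rpl35. For 4 of them, counts moved in opposite directions on the gene and on a pseudogene nearly identical to it.

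Rpl26, a large-subunit protein near the exit tunnel, showed the widest swing. Its level was 165, 33.3 and 157 CPM in P0 knockouts and 256, 150.3 and 145 CPM in wild types, while the pseudogene Gm15772 (chr5:3236431-3236868, + strand) held 90.2, 159 and 80.6 CPM and 5.38, 71.8 and 79.4 CPM in the same libraries. Where the gene was low the copy was high, in either genotype. The sum of both ranged 1.33-fold over the P0 knockouts, against 4.95-fold for Rpl26 alone. In P14 libraries the copy held 1.84 to 3.30 CPM. Over the 438 coding bases the copy differed from Rpl26 at 2 positions, C177T and T288C, counted from 1 at the first coding base with the gene's base first. The stretch around the second is shown because so few bases separate the members from their copies, with the differing base in capitals (GENCODE transcripts, GRCm38).
Rpl26 (chr11:68903260-68903319, + strand): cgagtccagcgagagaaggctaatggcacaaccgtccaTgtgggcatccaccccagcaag
Gm15772 (chr5:3236680-3236739, + strand): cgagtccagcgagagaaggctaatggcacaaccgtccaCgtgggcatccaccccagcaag

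Rps26, a Diamond-Blackfan gene of the small subunit, stood at 198, 293 and 256 CPM in P0 knockouts and 295, 292 and 159 CPM in wild types. Its copy Rps26-ps1 (chr8:107439131-107439579, - strand) held 56.8, 3.73 and 33.8 CPM and 5.80, 3.97 and 48.3 CPM. The 3 libraries with the lowest Rps26 were those with the highest copy. The copy differed at 2 of 348 coding bases, C30T and G270A, and the second is shown in capitals.
Rps26 (chr10:128625220-128625279, - strand): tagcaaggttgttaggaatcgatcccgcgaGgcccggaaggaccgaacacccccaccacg
Rps26-ps1 (chr8:107439264-107439323, - strand): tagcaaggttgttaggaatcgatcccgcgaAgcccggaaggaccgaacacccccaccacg

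Rps2, which sits at the mRNA entry of the small subunit, was low in P0 knockout replicate 2 (484 CPM against 749 and 781), in P0 wild-type replicate 2 (281 against 713 and 649) and in P14 knockout replicates 1 and 3 (343 and 377 against 499). Its copy Rps2-ps10 held 111, 199, 95.2 and 111 CPM in those 4 libraries and 2.79 to 5.75 CPM in the other 8. Rps18, on the same chromosome as Rps2 at a distance of 9.23 Mb, was also below the rest of its group in those 4 libraries, with 260.4, 146, 119 and 131 CPM. Rpl29 was high (331, 308, 178 and 229 CPM) in the 4 libraries in which its copy Gm8210 (chr1:43189156-43189638, + strand; 99.4% identical) was at or near 0, and at 95.1 to 218 CPM in the others. The sum of Rpl29 and its copy ranged from 1.54-fold to 2.27-fold within groups. In P0 wild types the sum with the copy ranged 1.49-fold for Rps2 and 1.45-fold for Rps26. The genes alone ranged 2.54-fold and 1.86-fold there. Gm8210 differed from Rpl29 at 3 of 483 coding bases, C72A, C300T and T423C, of which the first is shown.
Rpl29 (chr9:106430312-106430371, + strand): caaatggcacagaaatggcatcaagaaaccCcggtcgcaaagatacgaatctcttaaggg
Gm8210 (chr1:43189197-43189256, + strand): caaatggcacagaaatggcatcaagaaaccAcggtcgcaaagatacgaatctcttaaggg
What sets which animals show these swings was not tested. At P0 they occurred in both genotypes. At P14 those of Rps2 and Rps18 were in knockouts only, that of Rpl29 was in both groups, and the copies of Rpl26 and Rps26 stayed at 1.33 to 3.30 CPM. The P0 fold changes of Rpl26, Rps26, Rps2, Rps18 and Rpl29 had SEs of 0.307 to 0.693.

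**Figure D2:**
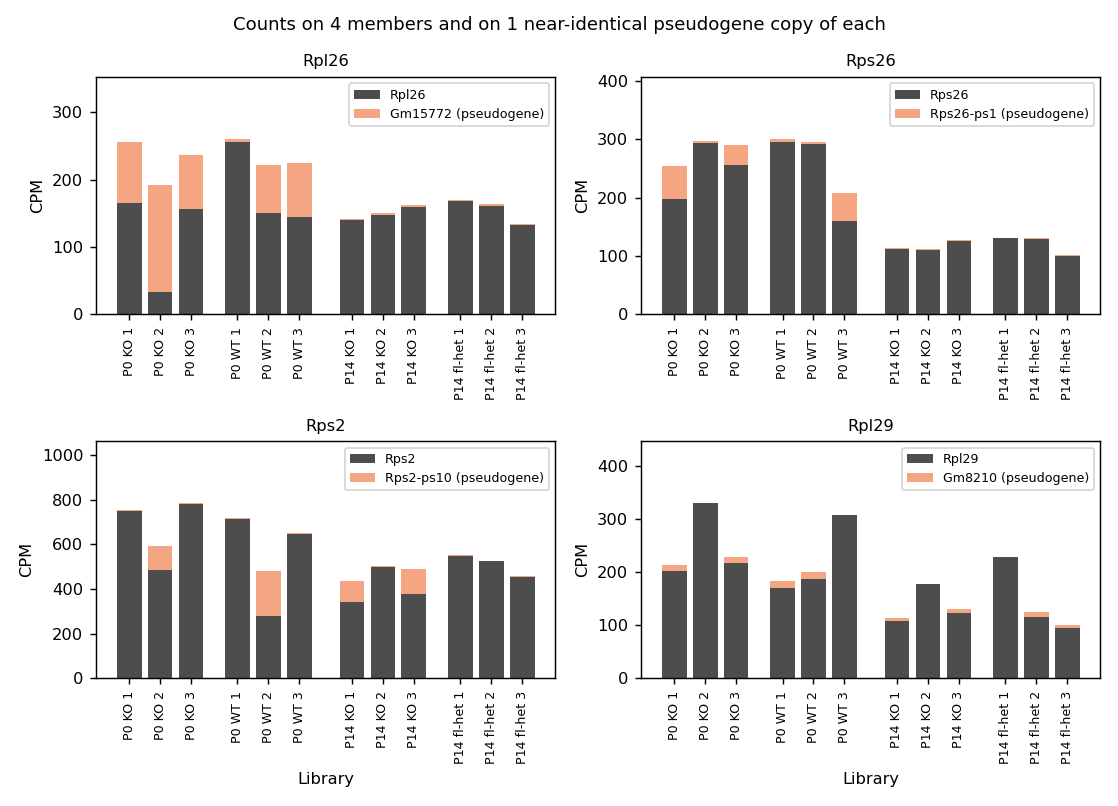
CPM on 4 members (dark) and on 1 pseudogene copy of each (light, stacked) in the 12 libraries; KO is knockout and WT wild type. In P0 knockout replicate 2 most counts of the Rpl26 pair lie on the copy, and the Rps2 copy is visible in 4 libraries of 3 groups.

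The control groups gave the level of the members in the 2 contexts. In P14 fl-het hippocampus 69 of 77 members tested were lower than in P0 wild-type forebrain and 1 was higher at an adjusted p under 0.05 (edgeR quasi-likelihood test over 18189 genes), where 31.7% of all genes were lower and 32.3% higher (64.0% in either direction). The median log2 difference was -0.90 for the members and -0.00 for all genes, with 1 of 77 members above 0 (49.8% of all genes). All 3 P14 controls lay below all 3 P0 controls for 70 members and above them for 1 (33.7% and 34.0% of all genes). In bulk tissue, fewer cells of a type and less RNA per cell cannot be told apart, nor can tissue, age and type of control. The small subunit had a median of -1.04 with 27 of 30 lower, the large subunit -0.86 with 39 of 43 lower, and all 3 P-stalk genes were lower.

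Rplp0, the P-stalk base, had 918, 942 and 824 CPM in P0 wild types and 381, 352 and 336 CPM in P14 controls, a 2.51-fold difference (log2 -1.33 ± 0.0815 SE, edgeR adjusted p = 2.57e-12). Rplp1 was lower by less, at 492, 502 and 554 CPM against 378, 375 and 305 CPM (log2 -0.55 ± 0.0879, edgeR adjusted p = 1.08e-05). Neither gene's groups overlapped. Rps19, the most often mutated Diamond-Blackfan gene, stood at 296, 284 and 293 CPM against 138, 130.1 and 107 CPM (log2 -1.22 ± 0.0877, edgeR adjusted p = 4.12e-11). Rpsa, also known as the laminin receptor, had 1036, 1032 and 956 CPM against 541, 537 and 459.8 CPM (log2 -0.98 ± 0.0862). The largest differences were those of Rpl35 (log2 -1.78), Rpl23a (-1.68), Rps12 (-1.49), Rplp0 and Rps27 (-1.32). Rpl35 and Rpl23a share 66.2% and 62.3% of their exon bases with other annotated genes.

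Rpl3, which lies at the peptidyl transferase centre, did not follow. It had 437, 441 and 552 CPM in P0 wild types and 505, 487 and 408 CPM in P14 controls, and the groups overlapped (log2 -0.03 ± 0.0930, edgeR adjusted p = 0.794). The other 6 members that did not pass were Rps2, Rpl26, Rpl29, Rps18, Rps27l and the sparsely counted Rpl24. Summed with their copies of at least 95% identity, a calculation added after the data were seen, Rps2 and Rpl26 passed as lower (log2 -0.30 and -0.64, edgeR adjusted p = 0.0445 and 1.01e-05), Rpl24 too, Rpl3 stood at -0.15 (edgeR adjusted p = 0.118), and the count became 73 lower and 0 higher. The 1 member that was higher, Rps10 (1.43, 1.30 and 1.22 CPM at P0 against 2.48, 2.57 and 2.43 CPM at P14, log2 0.93 ± 0.254), then turned to -1.12, so its direction rests on 16 to 46 counts on the gene itself. Rps27l differed by -0.24 ± 0.132 (edgeR adjusted p = 0.117), while Rps27 differed by -1.32 ± 0.0972.

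**Figure D3:**
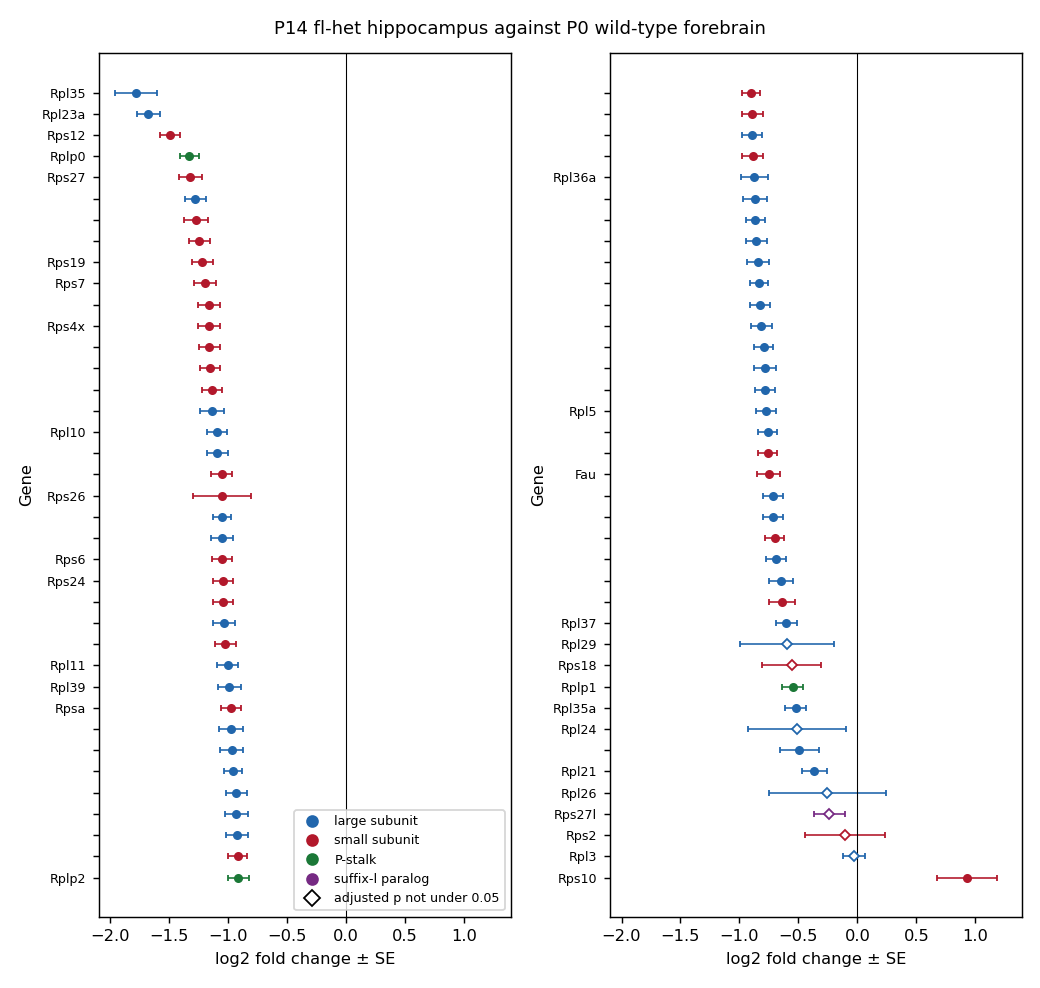
Log2 fold change ± SE of 76 of the 77 members tested (1 is not shown; labels mark a selection of the genes named in the text), P14 fl-het hippocampus against P0 wild-type forebrain (negative is lower at P14), coloured by class; open diamonds did not reach an adjusted p under 0.05. Of the 76 shown, 75 lie below 0, Rpl3 lies at -0.03 and Rps10 lies alone above 0 at 0.93.

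The first genotype comparison asked whether the members differ in newborn forebrain without Auts2 exon 7. Rpl21 and Rpl37 were higher in knockouts, and nearly every other member pointed the same way by a small amount. Log2 fold changes were above 0 for 72 of 77 members (49.9% of all genes), with a median of 0.17 against -0.00 for all 16176 genes tested, while the median SE of a member was 0.0737. With edgeR 2 members were called higher and 0 lower at an adjusted p under 0.05 (0.192% and 0.717% of all genes, 0.909% in either direction). An unadjusted p under 0.05 was reached by 44 members in the higher direction and by 0 in the lower (6.95% and 9.17% of all genes). The count of called members depended on the model: DESeq2 called 11 (2.36% of all genes), a GC content offset 15 (2.44%), a term for the series of library numbers 12 (2.87%) and a fit with no filter on low counts 10 (1.99%), all higher. All 3 knockouts lay above all 3 wild types for 52 members (10.7% of all genes) and below them for 0 (11.1%).

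Rpl21, a large-subunit protein, had 403, 401 and 334 CPM in knockouts and 269.6, 283 and 304 CPM in wild types, a log2 fold change of 0.40 ± 0.0851 (edgeR adjusted p = 0.0456). Rpl37, a zinc-binding large-subunit protein, had 162, 160.1 and 161 CPM against 116, 123 and 136 CPM, or 0.36 ± 0.0770 (edgeR adjusted p = 0.0475). Groups did not overlap for either gene. Both calls were marginal: when the 6 libraries were left out in turn, each gene passed in 2 of the fits, with log2 fold changes from 0.31 to 0.49 over all 6. Without any of knockout replicates 1 and 2 or wild-type replicates 1 and 2, no member was called (26 to 35 members at an unadjusted p under 0.05). Shares of all genes in those fits are not given here, so the loss of calls cannot be assigned to the members alone. Without knockout replicate 3, 13 were called, and without wild-type replicate 3, 5 (4.69% and 1.51% of all genes, either direction). The median of the members was 0.16 to 0.19 in these 6 fits. Rpl21 (chr5:146832890-146837032) lies 14.3 Mb from Auts2, and Polr1d, an RNA polymerase I and III subunit that was also called, lies 240.0 kb from Rpl21. The 5 members on chromosome 5 had a median of 0.13 and those elsewhere 0.18.

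The shift was spread over the structural classes. In the large subunit 41 of 43 members were above 0 and 29 had groups that did not overlap, and in the small subunit the counts were 27 and 21 of 30. Among the P-stalk genes, Rplp2 had 265, 271 and 292 CPM in knockouts and 223, 221 and 226 CPM in wild types (0.30 ± 0.0691, edgeR adjusted p = 0.0574). Rplp1 differed by 0.23 ± 0.0753 and Rplp0 by 0.12 ± 0.0762, the latter with overlapping groups. Fau had 259, 242 and 289.9 CPM against 194, 209 and 229 CPM (0.32 ± 0.0846, edgeR adjusted p = 0.0855), and again no wild type reached a knockout. Of the X-linked members, Rpl36a (0.36) and Rpl39 (0.25) had groups that did not overlap, whereas Rpl10 (0.09) and Rps4x (0.06) did overlap.

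Several Diamond-Blackfan genes are given by value. Rpl35a had 170.4, 172 and 173 CPM in knockouts and 134, 136 and 145 CPM in wild types (0.31 ± 0.0708, edgeR adjusted p = 0.0565). Rps19 had 349, 341 and 376 CPM against 296, 284 and 293 CPM (0.28 ± 0.0691, edgeR adjusted p = 0.0665), and Rps7 592, 598 and 607 CPM against 491, 493 and 507 CPM (0.26 ± 0.0655, edgeR adjusted p = 0.0712). The replicates of each were close and the groups well separated, yet none of the 3 passed in the main edgeR fit. All 3 passed with DESeq2, with the GC content offset and with the term for library numbers. A non-robust fit called 0 members, and its share of all genes is not given here. Rpl11 (0.22), Rpl5 (0.17) and Rps24 (0.13) followed, Rps10 (0.74) rests on 16 to 46 counts, and Rps26 (-0.00) is the gene whose counts swing with its copy. The 5 members at the low end were Rpl26 (-0.63 ± 0.693), Rpl35 (-0.13), Rps12 (-0.07), Rps6 (-0.07) and Rps26. Rps18, whose counts swing like those of Rps2, differed by 0.38 ± 0.328, and Rpsa by 0.08 ± 0.0748.

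Members with no pseudogene copy by the rule above showed the same picture. Of 14 tested, 13 were above 0, with a median of 0.17, and 12 had groups that did not overlap. When counts on copies of at least 95% identity were added to their genes, 2 members were again called. Library numbers in the labels place 4 of the P0 libraries together (1407 to 1410) and 2 apart (1415 and 1416). Within the first series both knockouts lay above both wild types for 60 of 77 members (27.7% of all genes), and within the second the knockout lay above the wild type for 74 (51.7%). A fit on 1407 to 1410 alone called 29 members higher and 1 (Rpl35) lower, where 12.9% of all genes were called. Genes with under 1500 bases of exon, members left out, had a median of 0.05 at P0 and 0.05 at P14. Their share of counts did not separate the genotypes at P0, with 4.91% to 5.02% in knockouts and 5.07%, 5.12% and 4.46% in wild types. Some summed cell type markers did differ between the groups at P0. The summed markers of astrocytes were 373 to 381 CPM in knockouts and 418 to 562 CPM in wild types, with 5 of 5 markers below 0 and 1 of them called lower. Those of choroid plexus were 878 to 973 CPM against 649 to 825 CPM, with 3 of 4 markers tested above 0 and 1 below. Sums of oligodendrocyte precursors, microglia, oligodendrocytes and dentate granule cells lay lower in all 3 knockouts. In that order, 4 of 4, 5 of 5, 3 of 5 and 4 of 4 markers tested were below 0. For microglia the highest knockout (51.7 CPM) nearly met the lowest wild type (51.9 CPM), as for oligodendrocytes (105.4 and 105.9 CPM). Summed progenitor, immature neuron and mature excitatory neuron markers overlapped between the groups. Of single markers, 2 of 5 mature excitatory neuron genes were called lower (median of the 5, -0.33). In that list 4 were below 0 and 1 was above, at 0.37. Of 6 immature neuron genes 1 was called higher (median 0.13), with 5 above 0 and 1 below. The only marker at 0 in any library was the erythroid gene Slc4a1. The part of cell type or of exon length in the members' shift was not tested beyond an offset on exon length, under which the median was 0.14.

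**Figure D4:**
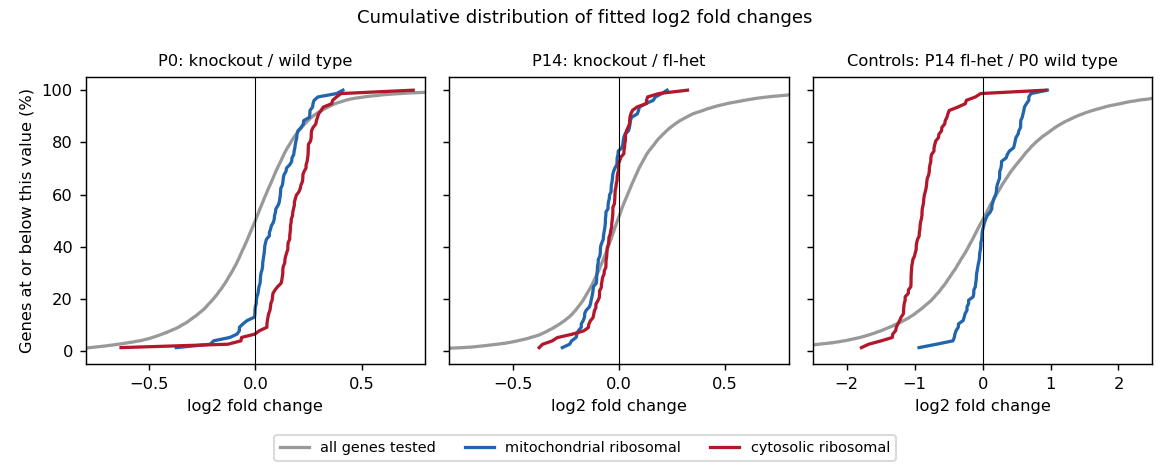
Cumulative share of genes (percent) at or below each fitted log2 fold change, for cytosolic ribosomal protein genes (red), mitochondrial ribosomal protein genes (blue) and all genes tested (grey), in the 2 genotype comparisons and between the control groups. The red curve is displaced to higher values at P0 (median 0.17), is close to 0 at P14 (-0.03) and is displaced to lower values between controls (-0.90).

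In P14 hippocampus no member was called between Nes-cre knockouts and fl-het controls (0 of 78 with edgeR and with DESeq2). Of all 17208 genes edgeR called 1.99%, 1.21% higher and 0.773% lower, and DESeq2 3.10%. At an unadjusted p under 0.05, 1 member was higher and 4 were lower (7.84% and 7.40% of all genes). The median was -0.03 against -0.01 for all genes, with 22 of 78 members above 0 (48.5% of all genes), and groups did not overlap for 1 member in the higher and 3 in the lower direction (9.43% and 10.6% of all genes). The replicates of the control group were far apart: fl-het replicate 3 was the lowest of the 6 libraries for 61 of 78 members and fl-het replicate 1 the highest for 56.

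Rps19 illustrates that spread, with 122, 110.0 and 128 CPM in knockouts and 138, 130.1 and 107 CPM in controls (-0.05 ± 0.0927). Rpl21, called at P0, had 214, 210.5 and 219 CPM in knockouts and 249, 239.8 and 177 CPM in controls (-0.03 ± 0.105), and Rpl37 had 76.3, 79.5 and 85.5 CPM against 91.7, 85.4 and 69.9 CPM (-0.02 ± 0.0927). For all 3 genes control 3 lay below every knockout. Controls 1 and 2 lay above every knockout for Rps19 and Rpl21, whereas for Rpl37 control 2 did not exceed knockout 3. Rpl23a (0.32 ± 0.110) was the member with all knockouts higher, at 18.1, 18.9 and 19.0 CPM against 13.9, 16.6 and 14.6 CPM (edgeR adjusted p = 0.164). Rps18 (-0.29 ± 0.0847, edgeR adjusted p = 0.0970), Rps27l (-0.36 ± 0.129) and Rps10 (-0.38 ± 0.233) had all knockouts lower. The other ends of the range were Rps29 (0.19), Rplp1 (0.14), Rpl12 (0.13) and Rpl3l (0.13) above, and Rps2 (-0.32) and Rpl7 (-0.22) below. Summed with its copies, Rps2 stood at -0.08.

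Without fl-het replicate 3 the median of the members became -0.14. In that fit 8 of 78 members were called lower, where 10.3% of all genes were called in either direction, a near-equal share. The 8 were Rps18, Rpl7, Rpl14, Rpl11, Rpl30, Rpl35a, Rpl5 and Rps13, with log2 fold changes from -0.35 to -0.21. Without knockout replicate 2, 1 of 78 members was called lower (1.07% of all genes). With no filter on low counts 2 of 79 were called lower (2.48% of all genes). These shares were also near those of all genes. Choroid plexus markers summed to 146, 955 and 2510 CPM in controls 1, 2 and 3 and to 1345 to 1998 CPM in knockouts, so they were highest in the control with the lowest members. Dentate granule cell markers were lower in knockouts for 6 of 6 genes (median -0.82), endothelial sums were 164 to 183 CPM in knockouts against 199 to 214 CPM, and oligodendrocyte precursor sums 406 to 456 CPM against 373 to 398 CPM. The part of these cell types in the members' values was not tested.

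**Figure D5:**
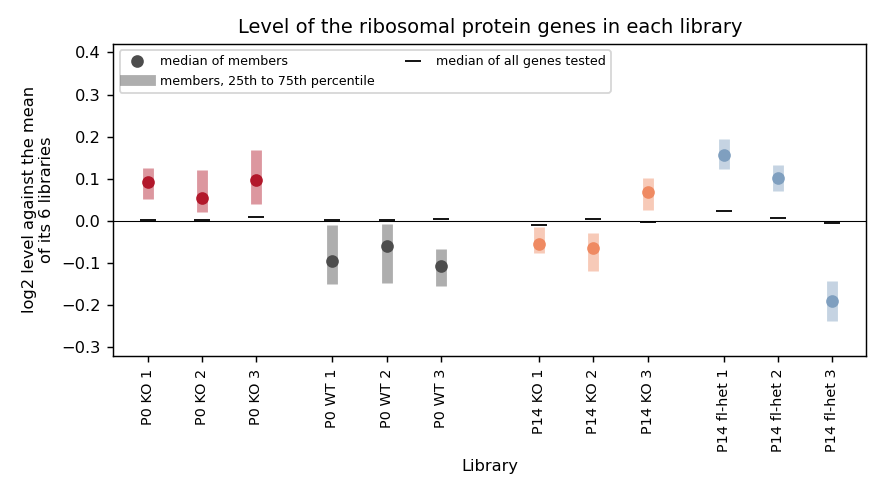
Log2 level of the members in each library against the mean of the 6 libraries of its age (log2 of CPM + 0.5); points are medians over the members tested, bars their 25th to 75th percentiles and dashes the median of all genes tested. P0 knockouts lie at 0.06 to 0.10 and wild types at -0.11 to -0.06; at P14 the fl-het replicates lie at 0.16, 0.10 and -0.19.

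The difference between the genotype effects (P14 effect minus P0 effect) was above 0 for 5 of 77 members (48.7% of all genes), with a median of -0.21 against -0.01 for all genes. No member was called (0 with edgeR and with DESeq2). Of all genes edgeR called 1.79%, 1.37% higher and 0.423% lower, and DESeq2 2.92%. An unadjusted p under 0.05 was reached by 26 members in the lower direction and 0 in the higher (6.90% and 8.42% of all genes). Rpl35a came closest, with -0.45 ± 0.131 (edgeR adjusted p = 0.0871). Rpl37 differed by -0.40 ± 0.127 and Rpl21 by -0.46 ± 0.147 (edgeR adjusted p = 0.122 and 0.132). The lowest values were those of Rps10 (-1.14), Rps18 (-0.69), Rps2 (-0.62), Rps27l (-0.54) and Rpl24 (-0.46), and the highest those of Rpl26 (0.58), Rpl23a (0.23), Rpl35 (0.08), Rps12 (0.06) and Rpl12 (0.03). None of these passed. The genotype effects of single members were thus not shown to differ between the contexts. Without fl-het replicate 3, 24 members were called lower, where 4.85% of all genes were called, and without P0 knockout replicate 3, 2 were (3.16%). With no filter on low counts 6 were (1.83%).

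Genes that the naming rule leaves out but that encode standard ribosomal proteins were read from the same fits. Rps27a, a ubiquitin fusion, differed by 0.20 ± 0.0655 at P0 and by -0.83 between controls (edgeR adjusted p = 3.88e-08), close to the members' medians. At P14 Rps27a differed by -0.11, below the members' 25th percentile of -0.08. Rps3a1, the mouse gene of the small-subunit protein S3a, differed by 0.11 at P0 and -0.12 at P14, and by 0.19 ± 0.0946 between controls (edgeR adjusted p = 0.0844). Like Rpl3, it was not lower at P14. Rpl36al had 0 to 10 counts, too few to place. The paralog-like Rpl7l1 and Rpl22l1 differed by 0.18 and 0.02 at P0, where neither passed.

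Other parts of the translation machinery were read beside the members. Their counts between controls stand against 31.7% of all genes lower and 32.3% higher. Mitochondrial ribosomal proteins, which build the separate ribosome of that organelle, had 64 of 77 genes above 0 at P0, a median of 0.09 and 0 called (11 at an unadjusted p under 0.05). Between the controls their median was 0.05, with 24 higher and 10 lower. Elongation factors and other transcripts with a TOP tract, such as Eef1a1, Rack1 and the non-coding Gas5, were lower at P14 in 22 of 25 cases. Their median was -0.92. Eef1a1 differed by -1.19 ± 0.0736 (edgeR adjusted p = 2.89e-12). At P0 their median was 0.08 with 22 of 25 above 0 and 0 called (4 at an unadjusted p under 0.05). Initiation factors had medians of -0.00 at P0 and -0.24 between controls, where 13 of 21 were lower and 1 was higher.

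Ribosome biogenesis factors, which assemble the subunits in the nucleolus, were lower at P14 for 25 of 46 and higher for 7, with Fbl at -1.02 and Npm1 at -0.96, and had a P0 median of 0.05 with 0 called. RNA polymerase I genes had 13 of 14 above 0 at P0, with Polr1d called higher (0.47 ± 0.101, edgeR adjusted p = 0.0483). Between controls 5 of 14 were lower, a share near that of all genes, and 0 were higher (median -0.18). Among regulators of ribosomal protein genes, Mycn, a MYC family factor of progenitors, was called higher at P0 (0.40 ± 0.0863, edgeR adjusted p = 0.0474). It was lower at P14 between controls (-1.49), as were Myc (-2.11) and Mycl (-0.94). The list read for these regulators also held genes of ribosome-associated quality control and genes linked to p53. Of its 26 genes tested between controls 7 were lower and 4 higher. The latter were Larp4 (0.58), Rptor (0.43), the quality control gene Ltn1 (0.40) and Rps6kb2 (0.39). None of these lists had a gene called at P14 between the genotypes.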

How the data were processed

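RNA was sequenced from 12 male mouse brain samples (TruSeq libraries, 150 bp paired reads, per the labels' protocols). The deposited files hold raw counts per gene, made by the authors with STAR 2.7.5a on GRCm38, and edgeR 3.12 is also named, per the submitters' processing notes. Trimming, strand setting and the handling of reads with several matches are not given in the sources used here. The 2 strand columns held near-equal totals (49.9% to 50.0%), so the unstranded counts were used and antisense genes cannot be separated. Symbols for 55227 identifiers, exon lengths and pseudogenes came from GENCODE M21. edgeR 4.0.16 (R 4.3.3) fitted each context on 6 libraries (filterByExpr, TMM, robust quasi-likelihood), and the difference between contexts and the control contrast on all 12, with Benjamini-Hochberg adjustment over all genes at 0.05. Fits were tested on simulated data, where the share of false calls was above the nominal level, so calls near the threshold are less certain than their adjusted p. DESeq2 1.42.0 and the other alternatives are in the closing section. Copies were found with blastn. Named genes are the called members, the 5 highest and lowest fold changes per comparison, and the functional groups given, and the other lists are given by counts with examples. Values of some single genes are not reported here. Members and lists were chosen with earlier results of these data known.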

Additional observations from a re-analysis of the deposited data

How the results depend on the processing

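The number of members called is the value that depended most on the processing. At P0, where 2 were called, the count was 10 with no filter on low counts, 11 with DESeq2, 0 with a non-robust fit, 1 when both ages were fitted together, 15 with an offset for GC content, 11 at an adjusted p under 0.1, 12 with a term for the series of library numbers, 30 on libraries 1407 to 1410 alone, and 0 to 13 when libraries were left out in turn. The median stayed above 0 in all 21 alternatives, from 0.14 to 0.19. At P14, with 0 called, no filter gave 2, a threshold of 0.1 gave 1, and leaving out libraries gave 0 to 8, and the median ranged from -0.14 to 0.03. For the difference between contexts, with 0 called, no filter gave 6, a threshold of 0.1 gave 1, and leaving out libraries gave 0 to 24. Between controls 70 members were called and the alternatives gave 68 to 73, while Rps10 reversed to -1.12 when summed with its copies. No other called member among those named changed sign. Shares of all genes are given above for only some of these fits. They are not given for the non-robust fit, the fit of both ages together, the threshold of 0.1 or the alternatives between controls. Without that share a changed count cannot be read as a change in the members alone. The causes of these changes were not tested. No paired analysis was possible because the labels give no replicate numbers, and the numbers used here follow accession order and pair nothing. The series of library numbers was fitted as a term instead, as given above. Low counts limit Rpl24, Rps10, Rpl13a and the paralogs.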
